A study of Mus musculus with 4 samples.

Results

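The genes of tight junctions and epithelial adhesion were compared between the Lgr5+ and Lgr6+ progenitors of the neonatal mouse cochlea. The members were taken by gene symbol from the deposited expression table. They are the claudins (symbols *Cldn* followed by a number), zonula occludens genes such as *Tjp1* and *Tjp3*, and *Ocln*, *Marveld2*, *Marveld3*, *Ildr1*, *F11r*, *Jam2*, *Jam3*, *Cgn*, *Epcam*, *Pvrl1* to *Pvrl3*, *Dsp*, *Dsg2*, *Dsc2*, *Jup* and *Pkp2*. *Cldn5*, the claudin of endothelium, was left out of the members and served as an endothelial marker. In all, 44 of the 23997 genes in the table were members. The expression unit was FPKM, the number of fragments mapped to a gene scaled by transcript length and by the total of mapped fragments, so that levels can be compared between genes on a per-length scale.

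Both populations were EGFP+ cells sorted at postnatal day 3 from the cochleae of C57BL/6 mice. Lgr5+ progenitors came from Lgr5-EGFP-IRES-CreERT2 mice and Lgr6+ progenitors from Lgr6-EGFP-IRES-CreERT2 mice, so a sorted cell is defined by EGFP driven from the *Lgr5* or the *Lgr6* locus, and both populations carried a reporter allele. The labels list 2 samples per population, whereas the methods describe 3 fractions of 1 RNA extraction, and the table holds 1 combined value per population. The spread between replicates is therefore unknown, no test could be made, and every difference below compares 2 combined values. Where a gene is given with a pair of values, the Lgr5+ value stands first, and positions are on GRCm38.

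Tight junctions seal the space between neighbouring epithelial cells near their apex. Claudins are the membrane proteins that form the strands and set which ions pass, occludin and tricellulin (*Marveld2*) are further strand proteins, and the zonula occludens proteins and cingulin tie the strands to actin. In the cochlea these seals keep the potassium-rich endolymph above the sensory epithelium apart from the perilymph below it, and loss of *Cldn9*, *Cldn14*, *Marveld2* or *Ildr1* causes deafness. Nectins, *Epcam* and desmosomes join the same cells below the seal.

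The level of junction genes as a whole was close in the 2 populations, but its make-up was not. The FPKM of the 44 genes summed to 1379 in Lgr5+ progenitors against 1195 in Lgr6+ progenitors, a ratio of 0.867 for Lgr6+ over Lgr5+, while the sum over all genes of the table had a ratio of 0.833. *Cldn9* was the highest junction gene of Lgr6+ progenitors, above *Epcam*, whereas in Lgr5+ progenitors *Epcam*, *Cldn3* and *Cldn7* all exceeded *Cldn9*. *Cldn3*, *Cldn4*, *F11r* and *Pvrl3* were more than 2-fold higher in Lgr5+ progenitors, and *Jam3* and *Marveld2* were more than 2-fold higher in Lgr6+ progenitors. *Cldn1*, *Cldn10* and *Cldn19* had values in Lgr6+ progenitors and were listed at 0 in Lgr5+ progenitors.

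Of the 44 members, 34 reached 1 FPKM in either population and are called kept. The log2 change is the log2(FPKM + 1) of Lgr6+ progenitors minus that of Lgr5+ progenitors, and the added 1 understates the difference of genes with low FPKM. On this scale 9 kept members were higher by 1.5-fold or more in Lgr6+ progenitors, beside 28.5% of all 13436 kept genes, and 8 were higher by 1.5-fold or more in Lgr5+ progenitors, beside 23.3%. These are 26.5% and 23.5% of the kept members. In either direction 50% of the kept members passed this fold, beside 51.8% of all kept genes, so the number of junction genes past it was near that of the table as a whole. Their median log2 change was 0.07, and that of all kept genes was 0.03. Genes past the fold are described by role below, and 9 of the 17 stayed past the threshold of every setting that they entered. These 9 include *Cldn1*, *Cldn10* and *Cldn19*, which reached 1 FPKM only in Lgr6+ progenitors and entered 6, 6 and 7 of 9 settings. A listed 0 beside at least 1 FPKM is past 1.5-fold and 2-fold on this scale by construction. For *Cldn1*, *Cldn10* and *Cldn19* the number of settings is therefore no measure of stability.

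**Figure D1:**
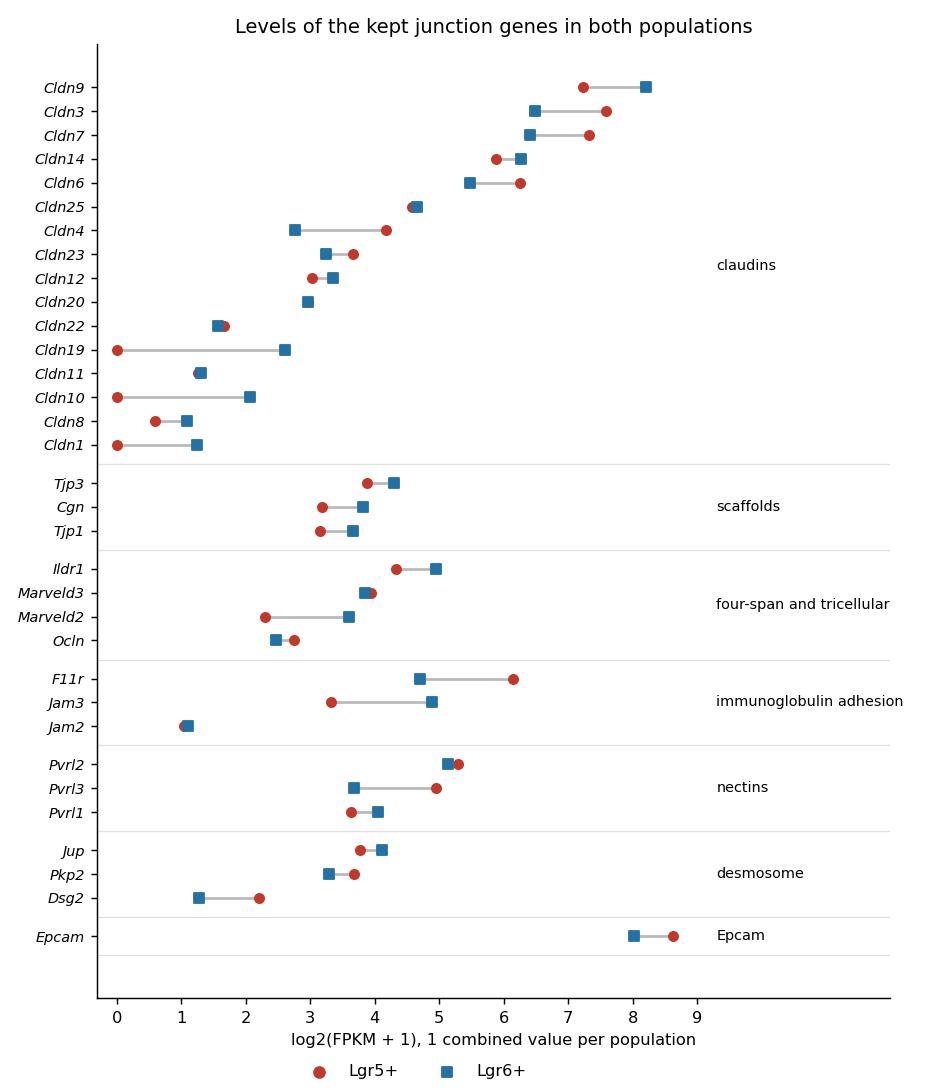
Level of the kept junction genes that are named in the text as log2(FPKM + 1), grouped by role, with 1 combined value for Lgr5+ progenitors (circles) and 1 for Lgr6+ progenitors (squares) and no error bars because replicates are already combined. *Cldn9* stands at the right end among the Lgr6+ values, and *Cldn1*, *Cldn10* and *Cldn19* have their Lgr5+ value at 0.

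The abundant claudins differed in both directions. *Cldn9*, at chr17:23682584-23684026, had 149.8 FPKM in the Lgr5+ population and 295.5 in the Lgr6+ population (log2 change 0.98). *Cldn14*, at chr16:93919031-94008837, had 57.7 and 75.9 (log2 change 0.39), under 1.5-fold. Both encode claudins of the organ of Corti, and both had the higher value in Lgr6+ progenitors.

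The other 3 abundant claudins were higher in Lgr5+ progenitors. *Cldn3*, a sealing claudin of many epithelia, is listed with the interval chr5:134986214-135001350, which is wider than the gene. It had 192.0 FPKM in the Lgr5+ population and 88.8 in the Lgr6+ population (log2 change -1.10). *Cldn7*, which binds the adhesion molecule encoded by *Epcam*, lies at chr11:69964779-69967886 and had 159.5 and 84.2 (log2 change -0.91). *Cldn6*, a claudin of immature epithelia, lies at chr17:23679365-23682446 and had 75.1 and 43.7 (log2 change -0.77). *Cldn4*, a less abundant relative of *Cldn3* at chr5:134945124-134946934, had 17.1 and 5.79 (log2 change -1.41). These 4 genes together had an FPKM of 443.7 in Lgr5+ progenitors, 1.99 times the 222.5 of Lgr6+ progenitors.

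Shares within a population do not depend on how the 2 populations were scaled to each other. *Cldn9* made up 21.3% of the summed claudin FPKM in Lgr5+ progenitors against 44.99% in Lgr6+ progenitors. *Cldn3*, *Cldn4*, *Cldn6* and *Cldn7* together made up 63.0% of it in Lgr5+ progenitors against 33.9% in Lgr6+ progenitors. The ratio of *Cldn9* to *Cldn3* was 0.78 in Lgr5+ progenitors against 3.33 in Lgr6+ progenitors, so it differed 4.27-fold. The summed claudin FPKM itself was 704.4 and 656.9. *Cldn9*, *Cldn14*, *Cldn3*, *Cldn6* and *Cldn7* supplied 90.03% of it in Lgr5+ progenitors against 89.5% in Lgr6+ progenitors, so the same 5 genes carried most of the claudin level in both.

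**Figure D2:**
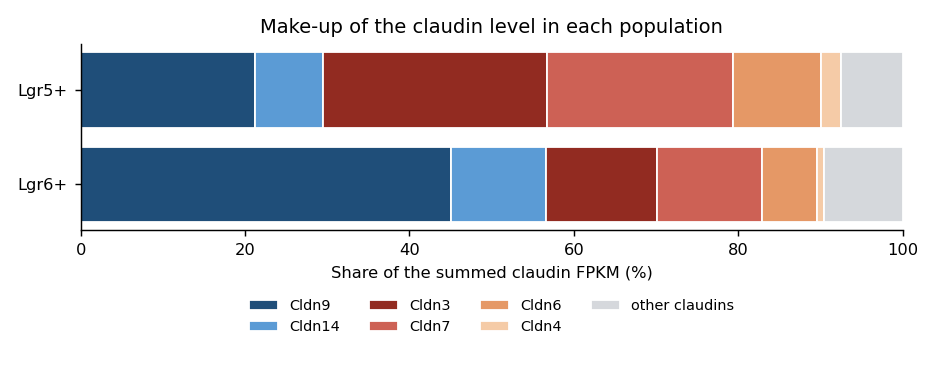
Share of the summed claudin FPKM (%) held by 6 named claudins and by all others in each population, as stacked bars of the combined values. The share of *Cldn9* is 21.3% in Lgr5+ progenitors against 44.99% in Lgr6+ progenitors, and those of *Cldn3*, *Cldn7*, *Cldn6* and *Cldn4* are each smaller in Lgr6+ progenitors.

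Neighbouring claudin genes did not always go together. *Cldn6* and *Cldn9* lie 137 bases apart in the table, and the former was higher in Lgr5+ progenitors while the latter was higher in Lgr6+ progenitors. *Cldn3* and *Cldn4* lie 39279 bases apart and both were higher in Lgr5+ progenitors. *Cldn3* has 1263 bases in RefSeq, and the wider interval given for it also covers *Wbscr25*, a long noncoding RNA gene that overlaps the end of *Cldn3*. The library kit does not mark strand, so reads of the overlap cannot be assigned to either gene.

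Of the remaining claudins, 3 were listed at 0 in Lgr5+ progenitors. *Cldn19*, a claudin of Schwann cell myelin and kidney, lies at chr4:119255441-119262438 and had 5.13 FPKM in the Lgr6+ population. *Cldn10*, which forms paracellular ion pores, lies at chr14:118787871-118874525 and had 3.20. *Cldn1*, the claudin of the skin barrier, had 1.36. A listed 0 can be a failed estimate or a missed transcript, so no fold is given. Of the 3866 genes of the table with an FPKM from 3 to 10 in Lgr6+ progenitors, 4.50% were listed at 0 in Lgr5+ progenitors, and in the opposite direction the share was 1.37% of 3496 genes. For an FPKM from 1 to 3, the range of *Cldn1*, the shares were 15.4% of 2162 genes and 5.06% of 1879 genes. Low values fall on steps of a smallest amount, which was 3.22 times finer in Lgr6+ than in Lgr5+ progenitors, and a finer step means more fragments behind a value.

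The other 7 kept claudins were under 1.5-fold on the log2(FPKM + 1) scale. *Cldn12* had 7.12 FPKM in the Lgr5+ population and 9.22 in the Lgr6+ population, *Cldn23* had 11.6 and 8.45, and *Cldn22* had 2.16 and 1.97. *Cldn11*, the claudin of myelin and of the basal cells of the stria vascularis, had 1.38 and 1.47. *Cldn8* had 0.507 and 1.13, which is under 1.5-fold on the scale with 1 added but 2.22-fold as a plain ratio, and it was past 1.5-fold with a pseudocount of 0.1. *Cldn20* had 6.83 and 6.79, but it overlaps *Tfb1m* and its interval in the table spans 231141 bases with several other genes, so its value is uncertain. The row named *Cldn25*, with 22.9 and 24.3, has the position of *Cldnd1*, a claudin-domain gene outside the classic family, and the row named *Cldn26* has that of *Tmem114*. The members below an FPKM of 1 in both populations included *Cldn15*, with 0.622 in Lgr5+ progenitors and listed at 0 in Lgr6+ progenitors, and *Cldn2*, *Cldn13*, *Cldn16*, *Cldn17*, *Cldn18*, *Cldn24* and *Cldn26*, listed at 0 in both. The pore-forming claudins of leaky epithelia, *Cldn2* and *Cldn15*, were thus at or near 0.

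Genes of the cytoplasmic scaffold had the higher FPKM in Lgr6+ progenitors. *Cgn*, which encodes cingulin, had 8.08 FPKM in the Lgr5+ population and 13.1 in the Lgr6+ population (log2 change 0.64), past 1.5-fold but under it after quantile normalization. *Tjp1* (ZO-1) had 7.84 and 11.7 and *Tjp3* (ZO-3) had 13.7 and 18.7, with log2 changes of 0.52 and 0.42, both under 1.5-fold. The interval of *Tjp3* also covers *Apba3*.

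Genes of tricellular contacts, where 3 cells meet, differed in both directions. *Marveld2*, which encodes tricellulin, lies at chr13:100595957-100616971 and had 3.90 FPKM in the Lgr5+ population and 11.2 in the Lgr6+ population (log2 change 1.31). *Ildr1*, which brings tricellulin to these contacts, lies at chr16:36693978-36726804 and had 19.1 and 30.0 (log2 change 0.62). *Lsr*, which encodes the other angulin with a kept value and is not a member, went the opposite way with 87.7 and 33.4 (log2 change -1.37). The strand proteins along the contact between a pair of cells differed less. *Ocln*, encoding occludin, had 5.70 and 4.56 (log2 change -0.27), and *Marveld3* had 14.4 and 13.4 (log2 change -0.10). The ratio of *Marveld2* to *Ocln* was 0.684 in Lgr5+ progenitors against 2.45 in Lgr6+ progenitors, although the genes lie 43458 bases apart on the same chromosome.

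Among the junctional adhesion molecules, *F11r* and *Jam3* differed in opposite directions. *F11r*, which encodes JAM-A of epithelial tight junctions, lies at chr1:171437561-171464593 and had 69.8 FPKM in the Lgr5+ population and 25.0 in the Lgr6+ population (log2 change -1.44). *Jam3*, which encodes JAM-C and is also made by endothelial and Schwann cells, lies at chr9:27097384-27155421 and had 9.001 and 28.5 (log2 change 1.56). *Jam2* was low in both, with 1.06 and 1.14. The ratio of *Jam3* to *F11r* was 0.129 in Lgr5+ progenitors against 1.14 in Lgr6+ progenitors, an 8.83-fold difference.

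The nectins, immunoglobulin adhesion molecules of adherens junctions, were under 1.5-fold except for *Pvrl3*. Nectin-1 and nectin-3 bind each other across the border of hair cells and supporting cells and take part in their checkerboard arrangement, with nectin-3 on the side of the supporting cell. *Pvrl3*, encoding nectin-3, lies at chr16:46394858-46496967 and had 29.8 FPKM in the Lgr5+ population and 11.8 in the Lgr6+ population (log2 change -1.27). *Pvrl1*, encoding nectin-1, had 11.4 and 15.5 (log2 change 0.41), and *Pvrl2* had 38.3 and 34.0 (log2 change -0.17). The ratio of *Pvrl1* to *Pvrl3* was 0.383 in Lgr5+ progenitors against 1.31 in Lgr6+ progenitors.

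*Epcam*, the epithelial adhesion molecule that stabilizes claudin-7, was the most abundant junction gene of Lgr5+ progenitors. It lies at chr17:87635979-87651127 and had 395.8 FPKM in the Lgr5+ population and 258.4 in the Lgr6+ population (log2 change -0.61), just past 1.5-fold and under it after quantile normalization. Its level exceeded that of 97.6% of the kept genes in Lgr5+ progenitors against 97.1% in Lgr6+ progenitors. *Epcam* and *Cldn7*, whose proteins bind each other, were both higher in Lgr5+ progenitors.

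Of the 5 desmosome genes, 3 were kept and 1 of these was past 1.5-fold. *Dsp*, encoding desmoplakin, the protein that links desmosomes to keratin, had 0.798 FPKM in the Lgr5+ population and 0.909 in the Lgr6+ population, and *Dsc2* had 0.218 and 0.0174, so neither was kept. *Dsg2*, a desmosomal cadherin, had 3.61 and 1.42 (log2 change -0.93). The plaque proteins *Jup* and *Pkp2*, the first of which also serves adherens junctions, had 12.6 and 16.3, and 11.8 and 8.74, both under 1.5-fold.

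**Figure D3:**
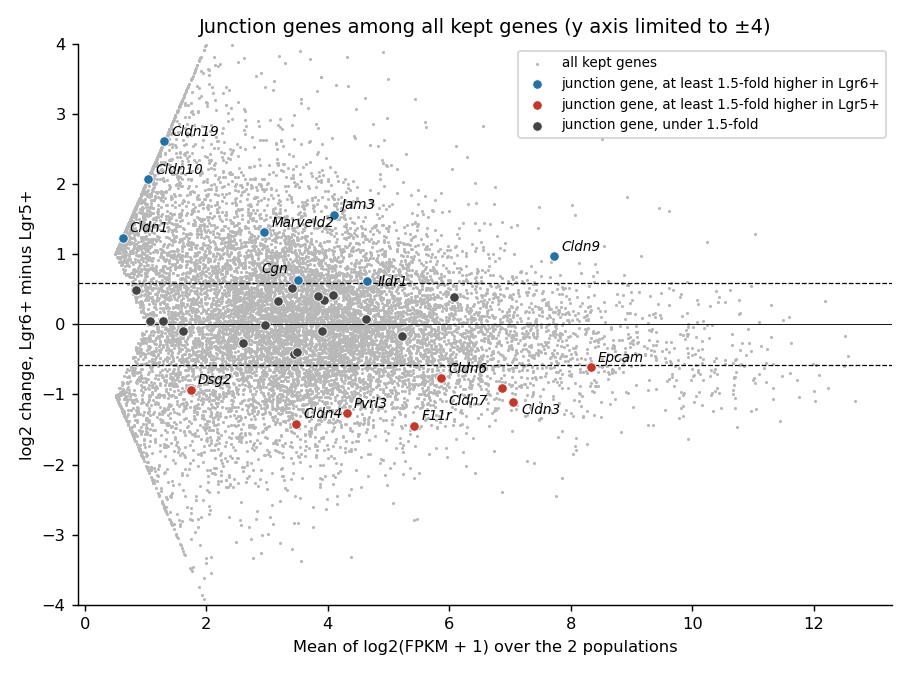
The log2 change of Lgr6+ minus Lgr5+ progenitors (y axis) against the mean log2(FPKM + 1) of both populations (x axis) for all kept genes (grey) and the kept junction genes named in the text (large points), with dashed lines at 1.5-fold. The y axis ends at 4 in both directions and leaves out 51 of the grey genes, and the junction genes lie within the cloud of all genes.

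The upstream sequence of the members that differed most was read from a set of promoter sequences on GRCm38.p6. This set had an entry for 24 of the 34 kept members, and *Cldn9* and *Jam3* were among those without one. The sequences below belong to those that were more than 2-fold apart on the log2(FPKM + 1) scale, were above an FPKM of 1 in both populations and had an entry. They are shown so that the promoters of these members can be read beside their values. Each is the 250 bases before the first listed start of the gene, read 5′ to 3′ on the strand of the gene. They lie at chr5:134985964-134986213 on the plus strand (*Cldn3*), chr5:134946935-134947184 on the minus strand (*Cldn4*), chr1:171437311-171437560 on the plus strand (*F11r*), chr16:46496968-46497217 on the minus strand (*Nectin3*, the current symbol of *Pvrl3*) and chr13:100616972-100617221 on the minus strand (*Marveld2*). Capitals mark CAGGTG or its reverse complement CACCTG, the E-box form that repressors such as Snail and Zeb can bind.
Cldn3: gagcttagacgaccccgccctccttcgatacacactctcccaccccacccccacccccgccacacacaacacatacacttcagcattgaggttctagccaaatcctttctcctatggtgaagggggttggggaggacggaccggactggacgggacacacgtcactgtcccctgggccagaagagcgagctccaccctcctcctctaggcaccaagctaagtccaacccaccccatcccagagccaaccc
Cldn4: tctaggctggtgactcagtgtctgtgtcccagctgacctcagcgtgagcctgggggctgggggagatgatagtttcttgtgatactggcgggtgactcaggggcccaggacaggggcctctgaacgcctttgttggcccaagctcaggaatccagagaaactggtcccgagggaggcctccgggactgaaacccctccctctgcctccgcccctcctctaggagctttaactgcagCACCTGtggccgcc
F11r: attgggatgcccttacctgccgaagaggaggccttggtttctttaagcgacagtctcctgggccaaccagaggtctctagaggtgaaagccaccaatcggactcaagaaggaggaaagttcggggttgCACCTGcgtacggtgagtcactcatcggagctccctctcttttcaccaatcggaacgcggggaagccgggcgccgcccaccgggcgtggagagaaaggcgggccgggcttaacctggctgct
Nectin3: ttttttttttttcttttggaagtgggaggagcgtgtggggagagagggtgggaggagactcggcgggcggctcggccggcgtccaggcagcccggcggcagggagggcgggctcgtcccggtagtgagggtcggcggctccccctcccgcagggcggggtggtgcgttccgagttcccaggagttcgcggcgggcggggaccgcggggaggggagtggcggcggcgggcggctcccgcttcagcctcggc
Marveld2: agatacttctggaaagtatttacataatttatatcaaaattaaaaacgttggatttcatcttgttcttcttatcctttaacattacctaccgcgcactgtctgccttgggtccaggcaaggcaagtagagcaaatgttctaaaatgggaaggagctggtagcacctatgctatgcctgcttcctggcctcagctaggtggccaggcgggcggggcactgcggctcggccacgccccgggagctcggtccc

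The E-box stood once in the *Cldn4* sequence and once in that of *F11r*, and in none of the others shown. Over the 24 kept members with an entry, 7 held CAGGTG or CACCTG in these 250 bases, 29.2%, beside 15.5% of 10036 kept genes and 17.1% of 27025 genes with an entry. Of the members higher by 1.5-fold or more in Lgr5+ progenitors, 4 of 7 held it, namely *F11r*, *Cldn4*, *Cldn6* and *Epcam*. Of those higher by 1.5-fold or more in Lgr6+ progenitors, 1 of 6 held it, *Ildr1*. Among those under 1.5-fold, 2 of 11 held it, *Pvrl2* and *Tjp3*. No share by direction was taken over all kept genes, so whether this split differs from theirs was not tested. These matches are letters in a window, and no binding was measured.

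Among the partners of tight junctions and the polarity proteins that place them, 31 of 36 listed genes were kept and 34 had a row in the table. Of the kept ones, 8 were higher by 1.5-fold or more in Lgr6+ progenitors and 6 in Lgr5+ progenitors, which is 25.8% and 19.4% of them beside 28.5% and 23.3% of all kept genes. Their median log2 change was 0.04. Those higher in Lgr6+ progenitors included *Pard3b*, a polarity scaffold, with an FPKM of 4.82 and 21.6, and *Prkci*, an atypical protein kinase C, with 2.43 and 7.24. *Cxadr*, an immunoglobulin adhesion molecule of tight junctions, had 20.1 and 42.4. Those higher in Lgr5+ progenitors included *Lsr*, named above, *Cgnl1*, which encodes paracingulin, with 16.6 and 5.43, and *Pard6a*, a partner of atypical protein kinase C, with 35.9 and 15.2. Cingulin and its relative paracingulin thus differed in opposite directions.

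Further desmosome and adhesion genes numbered 10 kept of 20, with 4 higher in Lgr5+ progenitors against 3 in Lgr6+ progenitors by at least 1.5-fold. That is 40% and 30% of the kept ones, beside 23.3% and 28.5% of all kept genes. *Pkp3*, a desmosomal plaque protein, had 28.6 FPKM in the Lgr5+ population and 7.60 in the Lgr6+ population, and *Pkp4* had 122.8 and 66.0. *Perp*, a desmosome-associated membrane protein, had 0.922 and 6.97.

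Of 11 kept regulators of epithelial genes, 5 were higher by 1.5-fold or more in Lgr5+ progenitors against 2 in Lgr6+ progenitors, 45.5% and 18.2% of them beside 23.3% and 28.5% of all kept genes. Their median log2 change was -0.32, beside 0.03 over all kept genes. *Grhl2*, a transcription factor that maintains epithelial junction genes, had 10.5 FPKM in the Lgr5+ population and 4.37 in the Lgr6+ population. *Ovol2*, a repressor of mesenchymal genes, had 31.8 and 5.55, and *Esrp1*, an epithelial splicing factor, had 34.2 and 17.3. Among repressors of epithelial adhesion genes, 5 of 6 were kept and 3 were higher by 1.5-fold or more in Lgr6+ progenitors. These were *Snai2* with 0.0709 and 4.77, *Zeb1* with 0.615 and 3.08 and *Twist1* with 4.81 and 10.9. *Zeb2* had 2.76 and 1.62 and *Twist2* had 0.993 and 1.52, both under 1.5-fold, and *Snai1*, with 0.916 and 0.3803, was not kept.

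Adherens junction genes are the closest comparison. Of the 6 classic ones, *Cdh1*, which encodes E-cadherin, had 137.9 FPKM in the Lgr5+ population and 68.7 in the Lgr6+ population, and *Cdh2*, which encodes N-cadherin, had 107.05 and 60.5. *Cdh3*, which encodes P-cadherin, had 5.99 and 1.67. *Ctnnd1*, which encodes the cadherin-binding catenin delta, went the other way with 11.02 and 21.6, so 3 of the 6 were past 1.5-fold on the Lgr5+ side and 1 on the Lgr6+ side. *Ctnnb1*, encoding β-catenin, had 155.0 and 153.6. Over 29 cadherins and catenins 16 were kept, of which 7 were higher by 1.5-fold or more in Lgr5+ progenitors against 5 in Lgr6+ progenitors, 43.8% and 31.2% beside 23.3% and 28.5% of all kept genes, and the median log2 change was -0.15. Of 20 connexins, the genes of gap junctions, 6 were kept, of which 3 (50%) were past 1.5-fold on the Lgr6+ side and 1 (16.7%) on the Lgr5+ side, while *Gjb2* and *Gjb6*, the main cochlear connexins, were under 1.5-fold with 177.0 and 156.7, and 104.2 and 92.9.

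**Figure D4:**
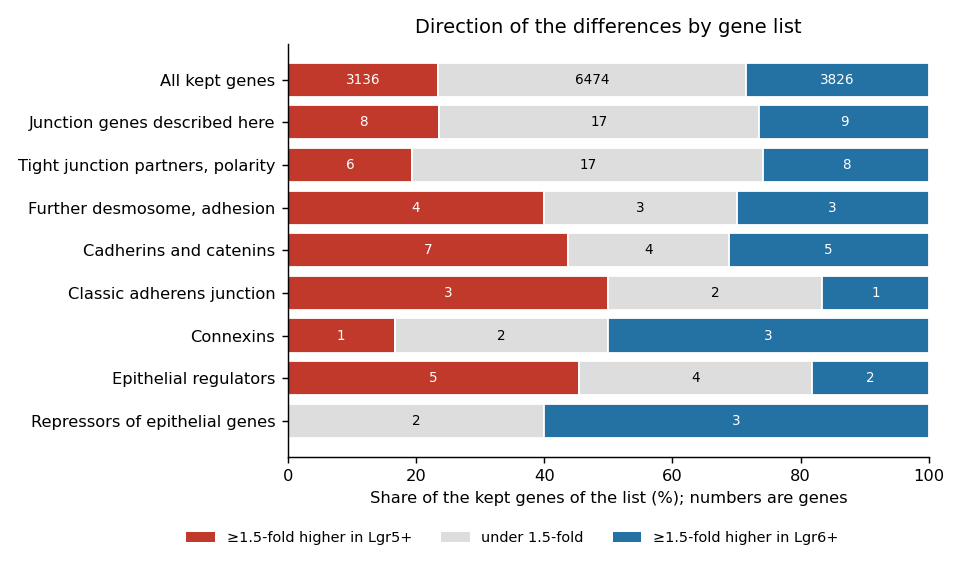
Share of the kept genes (%) of each list that were higher by 1.5-fold or more in Lgr5+ progenitors, under 1.5-fold or higher by 1.5-fold or more in Lgr6+ progenitors, with the number of genes in each segment. The bar of the junction genes, with 8, 17 and 9 genes, has nearly the proportions of the bar of all 13436 kept genes.

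Markers of cell types were read beside these values because a sorted population can hold other cells. Supporting cell markers were present in both. Of 10, 3 were higher by 1.5-fold or more in Lgr5+ progenitors, 1 in Lgr6+ progenitors, and 6 were under 1.5-fold. The 3 are 30% of the list, beside 23.3% of all kept genes, and include *Sox2* with an FPKM of 139.6 and 54.8. *Lgr5* itself had 9.65 FPKM in the Lgr5+ population and 24.99 in the Lgr6+ population, and *Lgr6* had 2.06 and 2.90, so neither gene of the sort was higher by 1.5-fold in its own population. In a bulk sample, fewer cells of a type and less RNA per cell cannot be told apart.

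Markers of other cell types were higher in the same population as several junction genes, although both populations had been sorted on EGFP. All 8 hair cell markers were higher in Lgr6+ progenitors, 7 of them by at least 1.5-fold, and their summed FPKM was 160.8 in Lgr5+ progenitors against 654.5 in Lgr6+ progenitors, with none at 0. *Cldn9*, *Cldn14*, *Marveld2* and *Ildr1*, which hair cells also express, were higher in the same population. Endothelial markers, 9 of 10 higher in Lgr6+ progenitors by at least 1.5-fold, summed to 34.5 and 178.6 with *Kdr* at 0 in Lgr5+ progenitors, and *Cldn5* had 2.95 and 27.3. Schwann cell and glial markers, 5 of 8 higher by at least 1.5-fold, summed to 92.8 and 336.6 with none at 0. *Cldn19* and *Jam3* were higher in the same population. The part of these cells in the junction differences was not tested.

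Fibrocyte and mesenchyme markers, 6 of 8 higher in Lgr6+ progenitors by at least 1.5-fold, summed to 58.7 and 703.6 with none at 0, and *Snai2*, *Zeb1* and *Twist1* were higher in the same population. Macrophage markers, 8 of 8 higher, summed to 3.66 and 262.8, with *C1qb*, *C1qc*, *Tyrobp*, *Csf1r* and *Aif1* at 0 in Lgr5+ progenitors. Erythroid markers went the other way, with sums of 945.5 and 413.0, and 4 of 6 kept were higher in Lgr5+ progenitors. Neuronal markers summed to 113.3 and 125.8, with 1 of 6 higher in Lgr6+ progenitors and 2 in Lgr5+ progenitors. Of the marginal cell markers of the stria, *Kcnq1* had a listed 0 and 4.83. *Kcne1* and *Hmx2* were listed at 0 in both, and the 5 marginal cell markers summed to 34.2 and 42.4, of which *Atp1b2* supplied 34.2 and 37.4. The 6 markers of melanocytes and intermediate cells summed to 1.68 and 3.97, with *Tyrp1* and *Mlana* at 0 in both. Those kept were split, as *Pmel* had 0.318 and 3.03 while *Mitf* went the other way with 1.18 and 0.121. The low *Cldn11* of both populations, given above, stood beside these values.

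**Figure D5:**
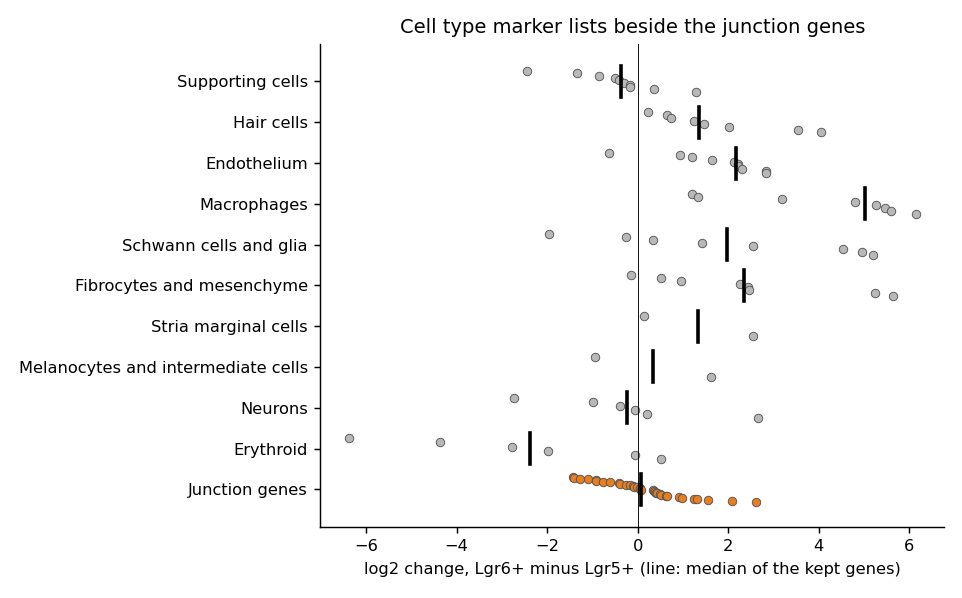
The log2 change of Lgr6+ minus Lgr5+ progenitors for each kept gene of 10 cell type marker lists and for the 34 kept junction genes, with the median of each list as a line. The junction genes centre on 0.07, whereas the hair cell, endothelial and macrophage lists have medians of 1.35, 2.16 and 5.03.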

How the data were processed

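The processed table of the RNA-Seq experiment was analysed, which covers 4 samples by the labels. Per the methods and the submitters' processing notes, the authors trimmed reads with Trimmomatic, mapped them with TopHat, annotated genes with RefGene and computed FPKM with Cufflinks, whose versions are not given in the sources used here. The FPKM values that the authors deposited are 1 combined value per population. The table's other columns hold the authors' own comparison (fold change, *p*-value and *q*-value) and were not used. The methods name mm9 and the processing notes mm10. Of 22500 symbols shared with RefSeq GRCm38.p6, 98.8% had overlapping positions, so positions were read as GRCm38, and starts were written 1-based.

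Genes that reached 1 FPKM in either population were kept, and differences were taken on log2(FPKM + 1) with a threshold of 1.5-fold. Every kept member was counted, and members past the threshold were given with values, except that single values of a few genes are not reported here. The members and lists were chosen with earlier results of these data known. The table holds no counts, so no counting interval is given, and neither limma nor any other test was possible on 1 value per population. The error rate of the calls was not tested. Alternatives were a pseudocount of 0.1, other filters, quantile and upper quartile scaling, no pseudocount and a 2-fold threshold. *Csda* and *Cldnd1* of the lists, and *Hbb-b2*, had no row under those symbols. Python 3.11.15, numpy 2.4.6, pandas 2.3.3 and matplotlib 3.10.9 were used.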

Additional observations from a re-analysis of the deposited data

How the results depend on the processing

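Of the 17 junction genes past 1.5-fold, *Cldn3*, *Cldn4*, *F11r*, *Pvrl3*, *Jam3* and *Marveld2* stayed past the threshold of every alternative. *Cldn1*, *Cldn10* and *Cldn19* stayed past it only in the alternatives that they entered. The filter of 1 FPKM in both populations and the ratio without a pseudocount left them out. The minimum FPKM of 5 also left out *Cldn1* and *Cldn10*. On log2(FPKM + 1) a listed 0 beside at least 1 FPKM passes the threshold by construction. The settings that *Cldn1*, *Cldn10* and *Cldn19* entered could therefore not test their calls. None of the 17 changed direction in a setting that it entered. Raising the threshold to 2-fold left 5 members on the Lgr6+ side and 4 on the Lgr5+ side. That is 26.5% of the kept members, beside 29.9% of all kept genes. The median log2 change was 0.0873 with a pseudocount of 0.1, 0 without a filter, 0.0779 with a minimum FPKM of 5, 0.0212 when both populations had to reach 1 FPKM, -0.13 after quantile normalization, 0.0644 after upper quartile scaling and 0.0812 for the ratio without a pseudocount, so its sign depended on the setting. The share of called members that were higher in Lgr6+ progenitors was 52.9%, and 42.9% when both populations had to reach 1 FPKM, which leaves out *Cldn1*, *Cldn10* and *Cldn19*. Over all called genes the same shares were 55.0% and 48.7%, so the share fell in the table as a whole too. No paired analysis was possible because the table holds 1 combined value per population, and for the same reason leaving out replicates was not run.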
